A study of Mus musculus with 20 samples.

Results

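The genes described here encode 8 cell-surface receptors through which signals of body energy and growth reach the preoptic area of the mouse hypothalamus. They are the leptin receptor Lepr, the insulin receptor Insr, the insulin-like growth factor 1 receptor Igf1r, the growth hormone receptor Ghr, the prolactin receptor Prlr, the melanocortin receptors Mc3r and Mc4r, and the neuropeptide Y receptor Npy1r. They were chosen by name, by a rule that did not use their levels, although earlier results of these data were known. Each was found among the 19269 gene symbols of the count table. All 8 passed the filter on low counts in every comparison. The first question was how abundant each receptor mRNA was in preoptic tissue. The others were whether that abundance differed between a pull-down and the tissue left after it, between ages, between sets of pools and between sequencing sets.

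Leptin from fat and insulin from the pancreas report energy stores and supply to the brain. Lepr, Ghr and Prlr are cytokine-type receptors that signal through Janus kinases and STAT proteins, whereas Insr and Igf1r are receptor tyrosine kinases that act through the insulin receptor substrates and phosphatidylinositol 3-kinase. Mc3r, Mc4r and Npy1r are G-protein-coupled receptors: the melanocortin receptors are activated by peptides cut from proopiomelanocortin (Pomc) and opposed by agouti-related protein (Agrp), and Npy1r binds neuropeptide Y (Npy). The preoptic area holds most of the neurons that make gonadotropin-releasing hormone (GnRH), the peptide that drives the pituitary-gonadal axis, and metabolic state is a known influence on puberty and fertility. The prolactin receptor of this area is known for its part in maternal behaviour.

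Preoptic punches were taken from female mice on day 21 (young) or on days 70 to 150 (adult, in diestrus), and each sample pooled 3 to 4 mice. The assay was translating ribosome affinity purification (TRAP): an antibody to green fluorescent protein (GFP) pulls down ribosomes whose L10a subunit carries GFP, giving an immunoprecipitate (IP) and a depleted supernatant. A Cre recombinase driven by the GnRH promoter switches on the tag in mice that also carry the floxed L10a-GFP allele, so that only cells in which that promoter has been active are marked. Young negative pools 1 and 2 were wild type, young negative pool 3 carried the floxed L10a-GFP allele without Cre, and both adult negative pools carried GnRH-Cre without the L10a-GFP allele. An adult pool with both alleles (GFP-positive) gave an IP and a supernatant without replicate. These 6 pools are called new. A further 4 pools with both alleles, 2 young and 2 adult, came from an earlier series and are called prior pools; their supernatants were sequenced in a first and again in a second set. Age and genotype changed together among the negative pools, and the labels used here do not say whether the dams of the prior pools were treated. Nothing in the labels says how the mice of separate pools were related, so the p-values for supernatant age and pool origin measure the spread between these pools. In the tests of IP against supernatant, both fractions of a pool entered as separate libraries, except where the pool is named as a block. For the sequencing sets, the p-values measure the spread of the differences within pools.

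The 20 libraries held 27.7 to 50.5 M counts each, and no library was identical to another. Gnrh1, the GnRH precursor gene, reached 1457 counts per M of counts (CPM) in the GFP-positive IP, against 7.85 to 33.5 CPM in the 5 negative IP libraries. That library is thus the one its label names. The neuronal genes Snap25, Tubb3 and Syt1 and the preoptic genes Gal, Nts and Calcr were present in each fraction, and 4 neuronal markers together made up 3620 to 4678 CPM in the supernatants. The pituitary hormone genes Gh and Prl, whose products are the ligands of Ghr and Prlr, had no counts in any IP library or in any supernatant of the new pools. Both had counts in adult prior supernatants, and averaged 0.17 and 0.22 CPM over the 5 adult second-set supernatants. Other pituitary hormone genes were present: Cga was at 1.82 CPM in the GFP-positive IP, and Lhb and Tshb averaged 0.17 and 0.098 CPM in the negative IP. CPM values were scaled with the trimmed-mean method (TMM). Levels were compared between genes only after division by the length of the longest annotated transcript, as CPM per kilobase, since longer mRNAs give more fragments.

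Per kilobase, Npy1r was the most abundant of the receptors in preoptic supernatant, and Lepr the least. Over 1 second-set supernatant from each of the 10 pools, Npy1r averaged 3.32 ± 0.48 CPM per kilobase (SD, n = 10) and exceeded Prlr in 10 of 10 pools. Prlr followed with a mean level of 2.05 ± 0.63 CPM per kilobase, then Mc4r with 1.66 ± 0.62 and Ghr with 1.59 ± 0.38. Prlr lay above Mc4r in 7 of the 10 pools and Mc4r above Ghr in 3, so the order of these neighbours was not separated from the spread between pools. Igf1r (0.98 ± 0.24 CPM per kilobase) lay above Insr (0.91 ± 0.22) in 7 pools, and Insr above Mc3r (0.76 ± 0.25) in 8. Ghr exceeded Igf1r in 9 of 10 pools, and Mc3r exceeded Lepr, at 0.39 ± 0.18 CPM per kilobase, in 9 of 10. The ranges of all 7 neighbouring pairs overlapped. In the first-set libraries of the 4 prior pools the means were 0.80 CPM per kilobase for Mc3r, 0.70 for Igf1r and 0.46 for Insr. The place of Mc3r below Igf1r and Insr thus did not hold in that sequencing set. The lengths behind this order run from 2623 nt for Mc3r to 11409 nt for Igf1r and need not be those of the transcripts expressed.

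The levels in CPM, not divided by length, show how far each receptor varied between pools and do not rank the receptors. Prlr ranged from 8.45 through a median of 19.67 to 28.7 CPM over the 10 supernatants, Igf1r from 7.80 through 10.4 to 16.6, Npy1r from 6.65 through 10.5 to 11.35, and Insr from 5.60 through 8.17 to 11.9. Ghr ranged from 4.63 through 6.52 to 10.3 CPM, Mc4r from 2.75 through 3.80 to 7.55, Lepr from 0.71 through 2.199 to 3.83 and Mc3r from 0.94 through 2.08 to 3.24. Npy1r was the steadiest, with a coefficient of variation of 14.5% (n = 10), and Lepr the most variable, with 47.9% and a highest library 5.40 times the lowest. The counts behind these values were smallest for Lepr, at 24 to 131 per supernatant, and for Mc3r, at 37 to 114. Since bulk tissue was measured, fewer cells that express a receptor and less receptor mRNA per cell cannot be told apart.

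**Figure D1:**
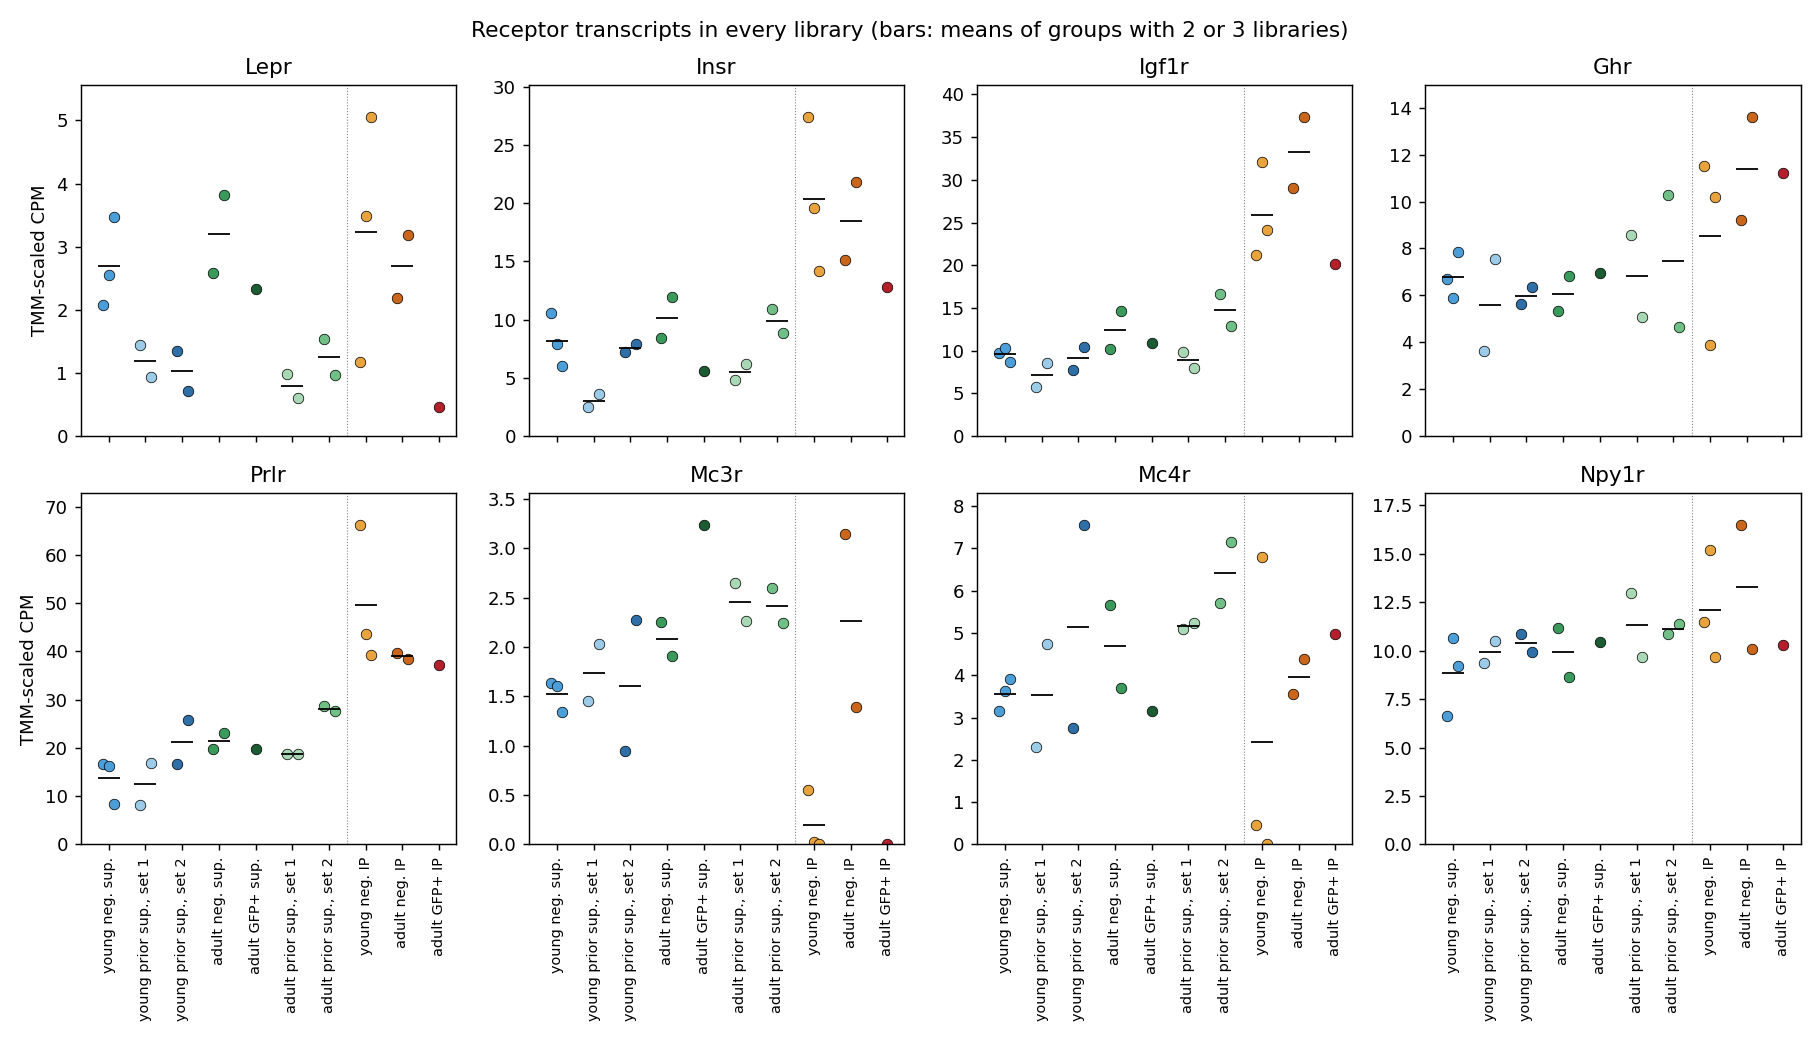
TMM-scaled CPM (y axis, linear from 0) of each receptor in all 20 libraries, by group; each point is 1 library and the bars are means of groups with 2 or 3 libraries. Supernatants stand left of the dotted line and IP libraries right of it: Igf1r, Prlr and Insr are higher in the IP, Mc3r and Mc4r scatter there down to 0, and Lepr is lower in the supernatants of the prior pools than in those of the new pools.

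The mRNAs of the insulin, IGF1 and prolactin receptors were more abundant in the IP of the negative pools than in their supernatants, although these mice had no tagged ribosomes to pull down. Igf1r stood at 21.2, 32.1 and 24.1 CPM in the IP of young negative pools 1 to 3 and at 29.1 and 37.4 in that of adult negative pools 1 and 2. The supernatants of the same pools held 9.71, 10.4 and 8.72 CPM (young) and 10.2 and 14.7 (adult). Every IP library lay above every supernatant, and the difference was 1.39 on the log2 scale (SE 0.20, adjusted p = 0.000553, a 2.63-fold difference). In the edgeR quasi-likelihood test of 5 IP against 5 supernatant libraries, 3 of the 8 receptors were called higher and none lower, beside 32.1% of all 16361 genes tested called in either direction (15.8% higher and 16.2% lower).

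Prlr is the receptor through which prolactin acts. It stood at 66.2, 43.6 and 39.2 CPM in the young negative IP libraries, against 16.65, 16.3 and 8.45 in their supernatants, and at 39.8 and 38.4 CPM in the adult IP libraries, against 19.7 and 23.2. The groups did not overlap, and the log2 difference was 1.33 (SE 0.23, adjusted p = 0.00149). Exons of Prlr overlap those of the predicted gene Gm21973 on the same strand, so reads of the pair could not be told apart. Insr stood at 27.4, 19.5 and 14.2 CPM in the young IP libraries, against 10.6, 7.94 and 6.04, and at 15.1 and 21.8 CPM in the adult IP, against 8.41 and 11.9. These groups did not overlap either, with a log2 difference of 1.06 (SE 0.27, adjusted p = 0.013). Without the supernatant of adult negative pool 1 the Insr call was lost (0.91, adjusted p = 0.0862). Across all genes tested, 24% had groups of 5 and 5 that did not overlap, and 12.2% did so with the IP higher.

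These 3 receptors have the longest mRNAs of the 8, with 11409 nt for Igf1r, 9900 nt for Prlr and 9355 nt for Insr, and the difference between IP and supernatant moved with transcript length over all genes. Across 13923 genes of at least 1 CPM, Spearman's rho between length and the log2 difference was 0.54, a description over genes that share the same libraries. The median log2 difference was −0.46 for genes no longer than 2020 nt and 0.57 for those of 4663 nt or more. It was 0.93 in the 520 genes of at least 9000 nt. With the pool as a block and each library's length trend removed, the log2 difference became 0.52 (SE 0.19, adjusted p = 0.0952) for Igf1r, 0.58 (SE 0.18, adjusted p = 0.0553) for Prlr and 0.33 (SE 0.22, adjusted p = 0.336) for Insr, and no receptor passed. The part of any other property that goes with length was not tested.

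**Figure D2:**
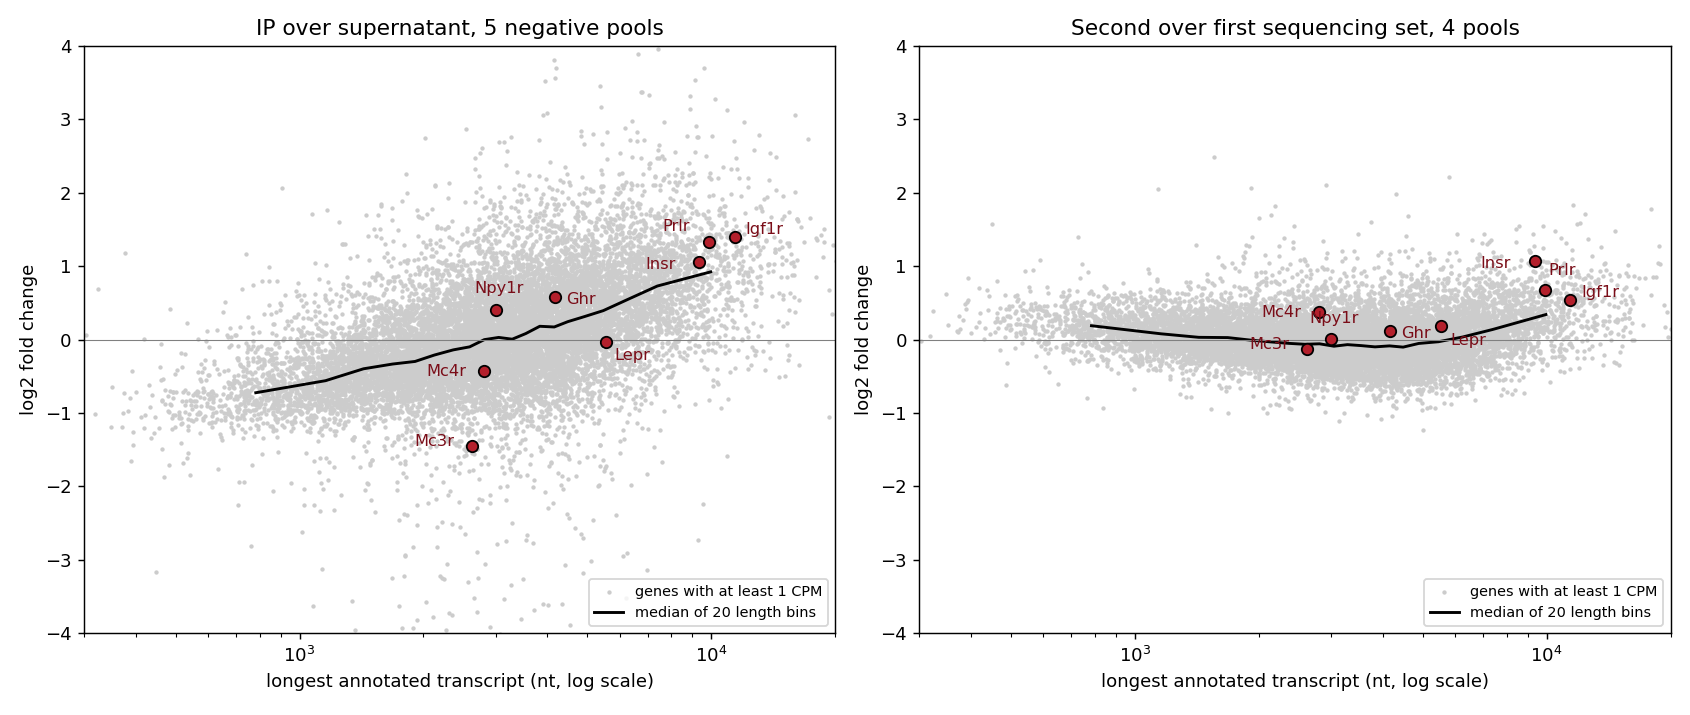
Log2 fold change of every gene with at least 1 CPM (grey) against the length of its longest annotated transcript (x axis, nt, log scale), for IP over supernatant in the 5 negative pools (left) and for the second over the first sequencing set in the 4 prior pools (right). The black line joins the medians of 20 length bins and red points are the receptors: on the left the medians climb from the short to the long genes, and Insr, Prlr and Igf1r, at 9355 to 11409 nt, stand above 0 in both panels.

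By age, all 3 of these receptors were higher in the young IP, with 3 of 8 members called beside 27.1% of all genes (13% higher and 14.1% lower). The log2 differences in the young pools were 1.81 for Prlr (SE 0.29, adjusted p = 0.00142), 1.39 for Igf1r (SE 0.26, adjusted p = 0.00287) and 1.28 for Insr (SE 0.34, adjusted p = 0.0201). The Insr call in the young ended without young negative IP 1 (1.01, adjusted p = 0.0586), without young negative supernatant 2 (1.23, adjusted p = 0.0833) or without supernatant 3 (1.102, adjusted p = 0.0773). Prlr still passed in the young with the pool as a block and the length trend removed, at 1.06 (adjusted p = 0.018). In the adult pools Igf1r was called (1.40, SE 0.31, adjusted p = 0.0196), 1 of 8 members beside 10.9% of all genes (6.39% higher and 4.49% lower), while Prlr differed by 0.85 (adjusted p = 0.158) and Insr by 0.84 (adjusted p = 0.24). Leaving out adult negative supernatant 1, supernatant 2 or IP 2 ended the Igf1r call in the adult, with adjusted p between 0.067 and 0.202.

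The test of the age difference itself called 0 of the 8 receptors and 0% of all 16361 genes in edgeR. An unadjusted p under 0.05 was found for 1068 genes, and DESeq2 called 153. For Prlr, whose IP excess was 1.99, 1.42 and 2.21 on the log2 scale in the young pools and 1.01 and 0.73 in the adult pools, the age difference was −0.95 (SE 0.45, unadjusted p = 0.0605, adjusted p = 0.775). For Insr the age difference was −0.43 (adjusted p = 0.991). The largest estimate of the 8 was that of Mc3r, at 3.12 (SE 2.11, adjusted p = 0.873). Its log2 difference between IP and supernatant was −3.01 (SE 1.41) in the young pools and 0.11 (SE 1.59) in the adult pools.

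**Figure D3:**
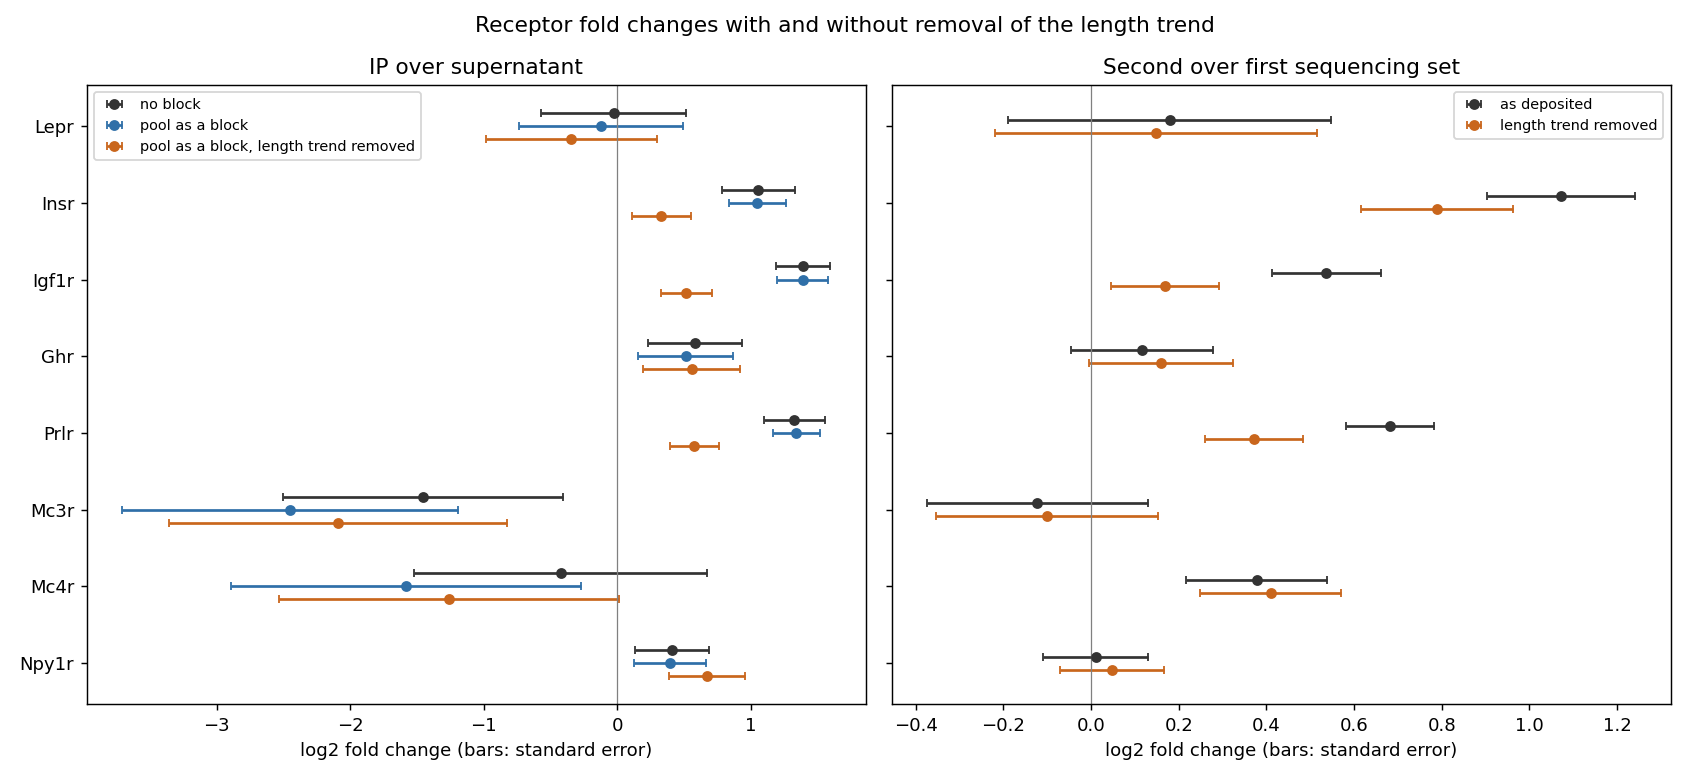
Log2 fold change of each receptor (points; bars are standard errors) for IP over supernatant (left) and for the second over the first sequencing set (right), as fitted, with the pool as a block, and with each library's trend on transcript length removed. On the left Igf1r moves from 1.39 to 0.52, Prlr from 1.33 to 0.58 and Insr from 1.06 to 0.33, and on the right Insr stays at 0.79.

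Of the other receptors, none was called between IP and supernatant. Ghr, the growth hormone receptor, was higher in the IP of 4 of the 5 negative pools, with 11.5, 3.90 and 10.2 CPM in the young IP against 6.69, 5.87 and 7.84, and 9.20 and 13.6 in the adult IP against 5.33 and 6.83. Its log2 difference was 0.58 (SE 0.35, adjusted p = 0.255). Npy1r was higher in the IP of 5 of 5 pools, by between 0.07 and 0.79 on the log2 scale, and its mean difference of 0.41 (SE 0.28, adjusted p = 0.307) did not pass. Lepr went either way, from −0.82 in young negative pool 1 to 0.54 in young negative pool 3, around a mean of −0.03 (SE 0.54, adjusted p = 0.983).

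The melanocortin receptors were unevenly recovered in the IP. Mc3r had 28, 1 and 0 counts in young negative IP libraries 1 to 3, and 113 and 54 in the adult ones, where the 5 supernatants held 44 to 114 counts. As levels, the 3 young IP libraries held 0.55, 0.026 and 0 CPM and the adult ones 3.14 and 1.39 CPM. Its log2 difference of −1.45 (SE 1.05, adjusted p = 0.346) did not pass, and a call appeared without young negative IP 1 (−3.29, adjusted p = 0.0104). In the young pools alone it was −3.01 (SE 1.41, adjusted p = 0.148), and DESeq2 called it (−3.05, adjusted p = 0.0471). Mc4r had 23, 263 and 0 counts in the young IP libraries and 128 and 170 in the adult ones, against 87 to 287 in the supernatants, with a log2 difference of −0.42 (SE 1.099, adjusted p = 0.825). Both values moved with single libraries or the block: that of Mc4r ran from −2.14 without young negative IP 2 to −0.13 without young negative IP 3 and was −1.58 with the pool as a block (adjusted p = 0.411), and that of Mc3r was −2.45 with the block (adjusted p = 0.188). A count of 0 was set against a floor of 3 counts, which is 0.060 CPM in young negative IP 3. The 95% Poisson limit there, counting error only, was higher, at 0.074 CPM.

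A gap in at least 1 IP library was common among genes of like abundance. Of 4285 genes with 1 to 10 CPM in the supernatants, 30.7% had 3 counts or fewer in at least 1 of the 6 IP libraries, and 1.14% in at least 1 of the 10 supernatants. Mc4r had such a gap in young negative IP 3 only, and Mc3r in young negative IP 2 and 3 and in the GFP-positive IP. The share of genes with as many gaps as Mc3r was not counted. The median coefficient of variation of these genes was 65% in the negative IP libraries and 26.7% in the negative supernatants. Mc3r varied by 129% and Mc4r by 93.3% across the negative IP (n = 5), against 19.7% and 24% in the supernatants, whereas Npy1r varied by 24.5% and Insr by 27.4% in the IP.

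The ligands and signalling partners of these receptors were followed as 5 lists, beside 15.8% of all genes called higher in the IP and 16.2% lower. In the insulin and IGF list 12 of 29 genes tested were higher in the negative IP and 1 was lower, with a median log2 difference of 0.27 against −0.03 for all genes. Among them the insulin receptor substrates Irs1 (2.56, adjusted p = 2.86e-05) and Irs2 (1.47, adjusted p = 2.06e-05) rose, as did Igf2r (1.82, adjusted p = 0.00146), the receptor that clears IGF2. Insrr, an insulin receptor relative, was lower (−4.14, adjusted p = 0.0461). In the leptin list 7 of 14 were higher and 2 lower, with a median of 0.40. The phosphatase gene Ptpn1 (1.54, adjusted p = 7.68e-06) and the feedback inhibitor Socs3 (1.52, adjusted p = 0.0214) were higher, and the adaptor genes Sh2b1 (−0.86, adjusted p = 0.00146) and Grb2 (−0.53, adjusted p = 0.000718) lower. In the growth hormone and prolactin list 4 of 19 were higher, among them Socs1 (1.88, adjusted p = 0.00195) and Socs2 (0.86, adjusted p = 0.00318), and 1, the somatostatin gene Sst, was lower (−0.75, adjusted p = 0.0391).

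Over all 5 negative pools, the peptide ligand genes Pomc, Agrp and Npy were not called between IP and supernatant. Of 12 melanocortin genes, Atrn was higher (1.28, adjusted p = 0.000147), and Gnas (−0.41, adjusted p = 0.00242) and Mgrn1 (−0.43, adjusted p = 0.0376) were lower. Gnas encodes the stimulatory G protein through which the melanocortin receptors raise cyclic AMP. Of 4 Npy-system genes, Dpp4, which encodes a peptidase that trims Npy, was lower (−4.51, adjusted p = 0.0482). Pomc differed by −0.66 (adjusted p = 0.155), Npy by −0.45 (adjusted p = 0.0897), Agrp by −0.61 (adjusted p = 0.795) and Igf1, the ligand of Igf1r, by 0.85 (adjusted p = 0.0593). In the young pools alone Npy was called lower in the IP (−0.82, SE 0.23, adjusted p = 0.0243), at 9.84 to 11.98 CPM against 16.6 to 20.5 in the supernatants. Gene length was not removed from these list counts, and its part in them was not tested.

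No receptor mRNA was called enriched or depleted in the pull-down from GnRH neurons. In the comparison of the GFP-positive IP with the 2 adult negative IP libraries, 0 of 8 receptors and 1 of 16586 genes (0.00603%) passed in edgeR. The unadjusted p was under 0.05 for 821 genes, and DESeq2 called 223. The gene called was Gnrh1, 5.91 higher on the log2 scale (SE 0.44, adjusted p = 0.0214), and that call ended when either adult negative IP library, or young negative IP 1 or 2, was left out. This test takes the spread of the positive library to be that of the negative libraries. The GFP-positive IP held 37.2 CPM of Prlr, beside 39.8 and 38.4 CPM in the adult negative IP libraries (log2 difference −0.03, SE 0.41, adjusted p = 1). It held 20.1 CPM of Igf1r, beside 29.1 and 37.4 (−0.69, SE 0.48, adjusted p = 0.938) and 12.8 of Insr, beside 15.1 and 21.8 (−0.49, SE 0.60, adjusted p = 0.987). Igf1r and Insr were thus lower than in both adult negative libraries, by amounts within the error of the test.

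Lepr had 22 counts in the GFP-positive IP, or 0.456 CPM, the lowest value of Lepr in the 20 libraries. The supernatant of the same pool held 2.33 CPM, 5.11 times as much, and the adult negative IP libraries held 2.195 and 3.19 CPM (log2 difference −2.52, SE 1.93, adjusted p = 0.941). The gene Leprot, which lies beside Lepr on chromosome 4 and encodes a regulator of receptor trafficking, was at 17.2 CPM there and at 25.3 in the supernatant. For Mc3r the GFP-positive IP held 0 counts and its supernatant 3.24 CPM. Set against a floor of 3 counts in that library, it was 52.1-fold lower, which takes the supernatant value as exact. The 95% Poisson limit in the IP was 0.076 CPM, above the floor of 0.062 CPM behind that fold. In the supernatant the limits ran from 2.60 to 3.98 CPM. Mc3r also had 0 and 1 counts in negative IP libraries of the young. Between that IP and its supernatant, Mc4r stood at 4.99 and 3.16 CPM, Npy1r at 10.3 and 10.4, and Ghr at 11.2 and 6.94. With 1 library, these ratios to the own supernatant have no replicate check. The series text in one place names the library labelled adult negative supernatant 1 as the supernatant of the GFP-positive pool. Against that library Mc4r was at 4.99 beside 5.67 CPM, a log2 ratio of −0.18 in place of 0.66, and the log2 ratio of Lepr was −2.51 in place of −2.35. The ratio of Insr was 0.61 in place of 1.195, and that of Ghr 1.07 in place of 0.69. The tests of IP against supernatant took this library as an adult negative supernatant. The Insr call over all negative pools and the Igf1r call in the adult ended without it.

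Sequencing the same supernatant RNA again moved the same long receptor mRNAs. In the 4 prior pools, Insr rose from 2.48 to 7.26 CPM (young prior 1), from 3.61 to 7.94 (young prior 2), from 4.80 to 10.9 (adult prior 3) and from 6.21 to 8.83 (adult prior 4) between the first and the second set. The log2 difference was 1.07 (SE 0.17, adjusted p = 0.000172), with the pool as a term. Prlr went from 8.10, 16.9, 18.8 and 18.8 CPM to 16.7, 25.8, 28.7 and 27.6 (0.68, SE 0.10, adjusted p = 0.000102), and Igf1r from 5.70, 8.51, 9.81 and 8.01 CPM to 7.80, 10.4, 16.6 and 12.8 (0.54, SE 0.12, adjusted p = 0.00365). The second set was higher in 4 of 4 pools for each. In total 3 of 8 receptors were called, beside 31.1% of 16117 genes in either direction (15% higher and 16.1% lower).

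Mc4r was also higher in 4 of 4 pools, by 0.16 to 0.67 on the log2 scale, without passing (0.38, SE 0.16, adjusted p = 0.0893). A shared direction in 4 of 4 pools was found for 44.5% of all genes, and 23.3% had the second set higher. Npy1r differed by 0.01 (SE 0.12), Ghr by 0.12 (SE 0.16), Lepr by 0.18 (SE 0.37) and Mc3r by −0.12 (SE 0.25), each with pools in both directions. The genes of at least 9000 nt had a median log2 difference of 0.38, although rho over all lengths was −0.0076. With the length trend removed, Insr kept a difference of 0.79 (SE 0.17) and Prlr one of 0.37 (SE 0.11), both still called, and Igf1r one of 0.17 (adjusted p = 0.342). Npy itself was called higher in the second set (0.40, adjusted p = 0.00739), as was Igf2 (0.75, adjusted p = 9.02e-06).

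No receptor mRNA was called different between adult and day 21 supernatants. The comparison held 10 second-set supernatants, 5 young and 5 adult, with the origin of the pool (prior or new) as a term, and 0 of 8 receptors were called beside 9.42% of 15938 genes (4.2% higher and 5.22% lower). All 8 estimates lay above 0, between 0.07 for Ghr and 0.65 for Mc3r, and the median of the 8 was 0.24 against 0.01 for all genes. Igf1r stood at 9.71, 10.4 and 8.72 CPM in young negative supernatants 1 to 3 and 7.80 and 10.4 in young prior pools 1 and 2. The adult values were 10.2 and 14.7 CPM (negative 1 and 2), 10.9 (GFP-positive), and 16.6 and 12.8 (prior 3 and 4). Only adult negative supernatant 1 reached into the young range, and the log2 difference was 0.46 (SE 0.15, adjusted p = 0.0763).

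Prlr stood at 16.65, 16.3, 8.45, 16.7 and 25.8 CPM in the same order of young pools and at 19.7, 23.2, 19.7, 28.7 and 27.6 CPM in the adult ones. Young prior pool 2 lay among the adult values and the other 4 young pools below them. The log2 difference was 0.52 (SE 0.17, adjusted p = 0.0783). It passed without young prior pool 2 (0.65, adjusted p = 0.0331). DESeq2 called both Igf1r (adjusted p = 0.0345) and Prlr (adjusted p = 0.0291). Groups of 5 and 5 that did not overlap were found for none of the receptors, beside 6.24% of all genes.

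Within the new pools alone the adult difference was 0.32 for Igf1r (SE 0.19), 0.61 for Prlr (SE 0.23) and 0.70 for Mc3r (SE 0.34). Within the prior pools alone it was 0.69 (SE 0.23), 0.40 (SE 0.22) and 0.59 (SE 0.50), and no receptor passed in either set. Mc3r stood at 1.64, 1.61, 1.34, 0.94 and 2.27 CPM in the young pools and at 2.25, 1.91, 3.24, 2.60 and 2.24 CPM in the adult ones (0.65, SE 0.27, adjusted p = 0.161). Here too young prior pool 2 was the only young library in the adult range. The differences of Npy1r (0.15, SE 0.14), Mc4r (0.27, SE 0.26), Insr (0.20, SE 0.21) and Lepr (0.17, SE 0.28) lay close to or below their standard errors.

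**Figure D4:**
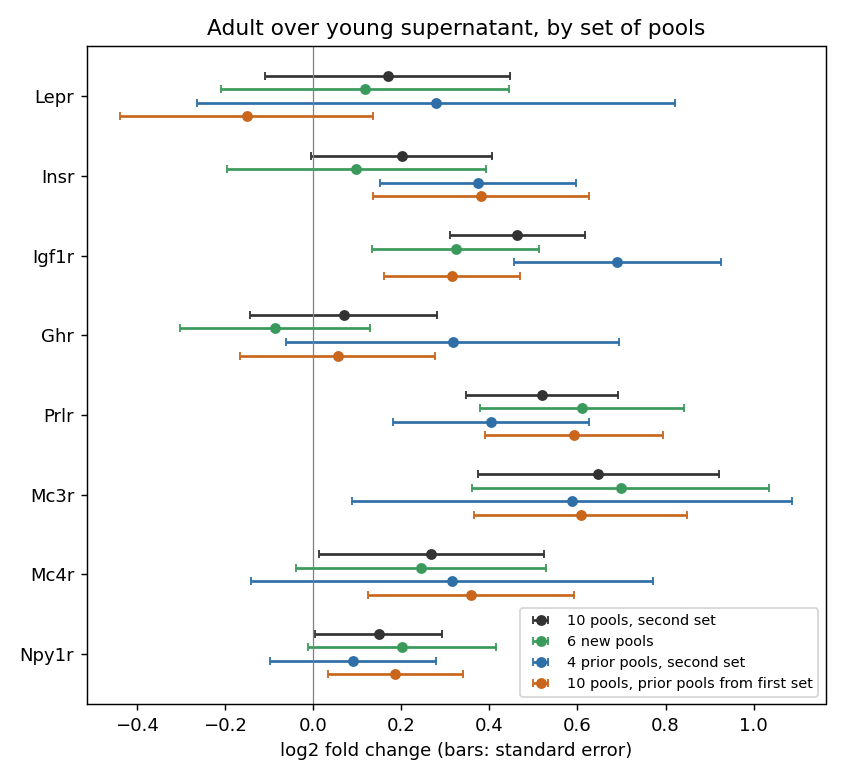
Log2 fold change of each receptor between adult and day 21 supernatants (points; bars are standard errors) in all 10 pools, in the 6 new pools, in the 4 prior pools, and with first-set libraries for the prior pools. The points of Lepr and Ghr fall on either side of 0, and those of the other 6 receptors lie above 0 in all 4 sets.

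The same 5 lists were followed with age, beside 4.2% of all genes called higher and 5.22% lower in adults. In the insulin and IGF list 3 of 29 fell and none rose. Among them, Irs1 fell by 0.65 (adjusted p = 0.0184) and Grb14, an adaptor that restrains the insulin receptor, by 0.56 (adjusted p = 0.00351), both on the log2 scale. Of 12 melanocortin genes Pomc was lower in adults (−0.64, adjusted p = 0.0385) and Cpe, a carboxypeptidase that finishes prohormone cleavage, higher (0.25, adjusted p = 0.0372). Cish, a STAT5 target and feedback inhibitor in growth hormone and prolactin signalling, was higher (0.57, SE 0.16, adjusted p = 0.0458), the only 1 of 18 genes called in that list. None of 14 leptin genes and none of 4 Npy genes was called. Igf1 (−0.52, adjusted p = 0.355) and Igf2 (−0.90, adjusted p = 0.251) did not pass.

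Lepr separated the prior pools from the new pools. The comparison of pool origin, a term of the same fit, was added after the values had been seen. Lepr stood at 2.07, 2.55 and 3.48 CPM in young negative supernatants 1 to 3, at 2.59 and 3.83 in adult negative supernatants 1 and 2, and at 2.33 in the GFP-positive supernatant. The prior pools held 1.35 and 0.708 CPM (young) and 1.54 and 0.964 CPM (adult) in the second set. Every prior pool lay below every new pool, and the log2 difference was −1.31 (SE 0.30, adjusted p = 0.0172). This was 1 of 8 receptors called, beside 12.6% of 15938 genes (6.6% higher and 6.03% lower). Groups of 4 and 6 that did not overlap were found for 8.02% of genes, with the prior pools higher in 4.71% and lower in 3.32%. The call ended without young prior pool 2 (−1.135, adjusted p = 0.0706) or adult prior pool 4 (−1.20, adjusted p = 0.0621).

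The first-set libraries of the same prior pools held 1.45, 0.94, 0.989 and 0.612 CPM of Lepr. With them in place of the second set the difference was −1.49 (adjusted p = 0.00211). In that fit the sequencing set also differed between prior and new pools and cannot be told apart from origin. It called 5993 genes, against 2013 with second-set libraries. Origin, storage of the RNA and the mice used cannot be told apart in this comparison. Genotype was shared in part: the new GFP-positive pool carried both alleles, as the prior pools did. Its supernatant held 2.33 CPM of Lepr, without replicate, and the part of genotype was not tested. Leprot did not pass (−0.29, adjusted p = 0.173). Of the other receptors none was called. Prlr was at 0.51 (SE 0.17, adjusted p = 0.0682) and Mc4r at 0.55 (SE 0.26, adjusted p = 0.165), and without young prior pool 1 both were called higher in the prior pools (Prlr 0.60, adjusted p = 0.0471; Mc4r 0.78, adjusted p = 0.0343).

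Some markers of the meninges and of fibroblasts were lower in the prior pools, as Lepr was. Of 8 such genes 4 were lower in the prior pools, namely the secreted proteoglycan gene Dcn (−1.72, adjusted p = 0.0355), Igf2 (−1.99, adjusted p = 0.025), the transporter gene Slc6a13 (−1.67, adjusted p = 0.0427) and the collagen gene Col1a1 (−1.63, adjusted p = 0.0294), and the median of the 8 was −1.65. Their summed level ran from 385 to 4281 CPM in the new supernatants and from 65.9 to 817 CPM in the prior ones, most of it from Ptgds, and no marker of the list was at 0 throughout. Over Dcn, Lum, Col1a1, Col1a2, Col3a1 and Slc6a13, a subset taken after the values were seen, the sum was lowest in young prior pool 2 (11.3 CPM), where Lepr was lowest among the supernatants of the second set. Among new supernatants it was highest in young negative pool 3 (153 CPM) and adult negative pool 2 (114 CPM), where Lepr was also highest. With Igf2 and Ptgds included this match was lost for young negative pool 3. Its sum was then 1552 CPM, below the 2014 CPM of adult negative supernatant 1 and the 1591 CPM of the GFP-positive supernatant. The order did not hold throughout: young negative supernatant 1 had 28.4 CPM of the markers and 2.07 CPM of Lepr, while young prior pool 1 had 48.1 CPM of the markers and 1.35 CPM of Lepr, and adult prior pool 3 had 38.9 and 1.54.

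In the negative IP the same order held at its ends, with 58.7 CPM of these 6 markers and 1.18 CPM of Lepr in young negative IP 1, and 238 CPM and 5.06 CPM in young negative IP 3. With Igf2 and Ptgds included the upper end did not hold. Young negative IP 3 then had 1015 CPM, against 1572 and 3362 CPM in adult negative IP 1 and 2. The GFP-positive IP stood apart, with 73 CPM of the markers and 0.456 CPM of Lepr. Whether Lepr mRNA came from such cells was not tested. Astrocyte and oligodendrocyte markers were lower in the prior pools for 2 of 5 genes each, and none of 8 endothelial markers was called (median −0.83).

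**Figure D5:**
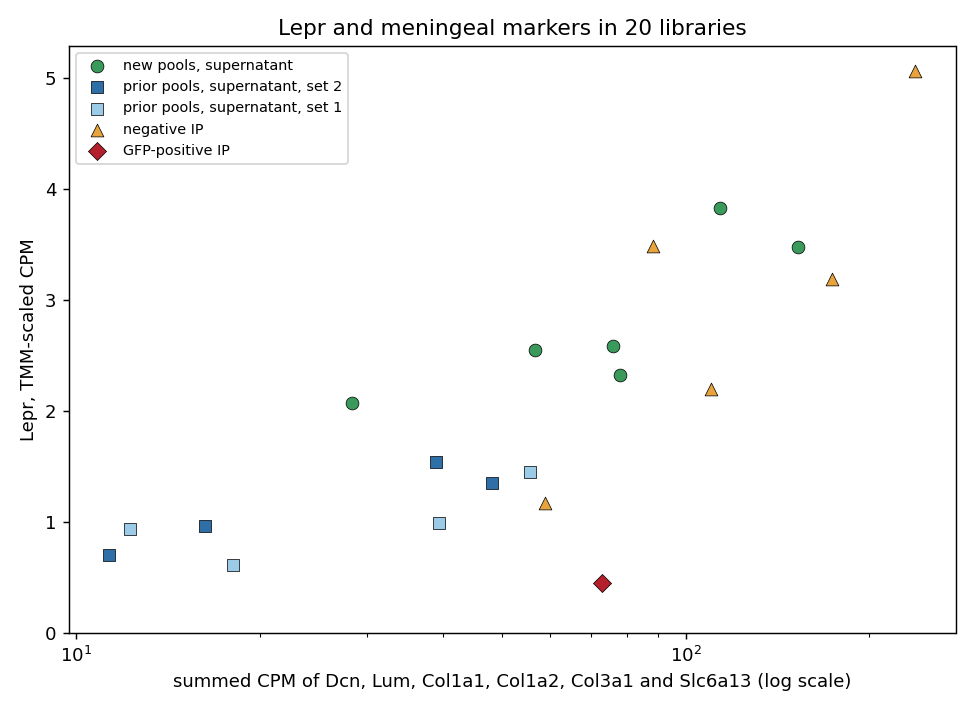
Lepr (y axis, TMM-scaled CPM) against the summed CPM of 6 meningeal and fibroblast genes (x axis, log scale) in all 20 libraries; each point is 1 library, and first- and second-set points of the prior pools are the same RNA. The prior pools, at 0.612 to 1.54 CPM of Lepr, lie below all new supernatants in Lepr while their marker sums overlap those of the new supernatants, and the GFP-positive IP has the lowest Lepr.

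Other genes of insulin-like growth factor signalling were also called by pool origin. In that list 5 of 29 genes were higher in the prior pools and 4 lower, beside 6.6% and 6.03% of all genes, and the carrier protein genes Igfbp2 (−1.88, adjusted p = 0.0292) and Igfbp4 (−0.90, adjusted p = 0.027) were among the lower ones. The substrate gene Irs4 (0.80, adjusted p = 0.01) and the adaptor gene Grb10 (0.50, adjusted p = 0.00657) were higher. Npy2r, the presynaptic Npy receptor (0.93, adjusted p = 0.00905), and the prohormone convertase gene Pcsk1 (0.96, adjusted p = 0.0204) were higher too, whereas Npy1r differed by 0.17 (SE 0.15, adjusted p = 0.464). In the leptin list Irs2 was higher (0.36, adjusted p = 0.0392) and Ptpn11 lower (−0.32, adjusted p = 0.0185) of 14 genes.

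Across the 10 second-set supernatants, each receptor was set against 12678 genes of at least 1 CPM by Pearson's r of log2 CPM, a description over libraries that share age, origin and depth. The closest to Lepr were Copz2 (r = 0.98), Gpx8 (0.98) and Nupr1 (0.97). For Igf1r they were Cntn2 (0.98), Edem2 (0.97) and Atp2b4 (0.97), and for Prlr Tmem26 (0.97), Tmem66 (0.97) and Lrig2 (0.97). Insr stood closest to Zfp236 (0.94), Ghr to Ninl (0.89), Mc3r to Chid1 (0.93) and to the dynorphin precursor gene Pdyn (0.93), Mc4r to Tmem39b (0.95) and Npy1r to Mob3a (0.95). Each of these genes was picked for a top value among 12678 genes over only 10 libraries. How high such a top value runs among unrelated genes was not tested. Among the receptors themselves, Igf1r and Prlr had the highest r (0.71), followed by Igf1r with Mc3r (0.65) and with Insr (0.64), and Lepr with Mc4r the lowest (−0.57).

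By position in the build GRCm38 (mm10), Lepr spans 101717404 to 101815352 on chromosome 4, Insr 3122061 to 3279617 on chromosome 8, and Igf1r 67952827 to 68233668 on chromosome 7. Ghr (3317760 to 3583492) and Prlr (10177238 to 10349180) both lie on chromosome 15, Mc3r spans 172248492 to 172251114 on chromosome 2, Mc4r lies on chromosome 18, and Npy1r spans 66697192 to 66706792 on chromosome 8. All are annotated as protein-coding. Exons of no receptor other than Prlr overlapped those of another gene.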

How the data were processed

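Counts were analysed as deposited: a single table of whole-number read counts per gene symbol for 20 libraries, not normalised by the authors, with 0 columns of other samples. The submitters' processing notes list HTSeq 0.6.1, DESeq2 1.14.1, TopHat2 2.0.13, Cuffdiff 2.1.1, Bowtie2 2.2.1, FastQC 0.11.3 and Cufflinks, and the build mm10, without roles. Strand setting, annotation and the handling of duplicate reads: not given in the sources used here. The libraries were made, per the labels' protocols, from polyA RNA amplified with an ultra-low-input SMARTer kit. With the strand setting unknown, reads of overlapping genes could not be told apart.

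Groups followed the sample titles. The series text names the GFP-positive supernatant inconsistently, and the sample labels were followed.

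Tests were run with edgeR 4.0.16 (quasi-likelihood) in R 4.3.3 after TMM scaling. Genes were kept by filterByExpr at a minimum count of 10. P-values were adjusted by Benjamini-Hochberg over all genes tested, at 0.05, and "called" means past that threshold. The fits held the 10 negative-pool libraries (1 term per fraction and age), the 10 second-set supernatants (age and pool origin), the 8 prior-pool libraries (set and pool) and the 6 IP libraries. CPM in the text are TMM-scaled over all 20 libraries. Transcript lengths came from GENCODE annotation of GRCm38 for 98.4% of genes. To remove a length trend, each library's loess curve of log counts on log length entered the fit as an offset. The scripts were tested on simulated counts with 200 changed genes.

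IP and supernatant of the same number came from the same pool, per the labels, and the numbers were taken to pair them. In the young pools their deviations from the group means correlated across genes by 0.113 to 0.284, against −0.218 to 0.0537 for unlike numbers. With 2 adult libraries per group, like and unlike numbers must give values of equal size and opposite sign (0.103 and −0.103). The adult check is thus a single sign and cannot settle the adult pairing. The descriptions of the adult negative supernatants give other replicate numbers than their titles. The titles were followed, and the adult ratios to the own supernatant and the fits with the pool as a block depend on that choice. Alternatives were DESeq2 1.42.0, no filter, the pool as a block, length offsets, other sets of pools and leaving out each library. The members, lists and tests were chosen with earlier results of these data known. Named genes were all members, up to 3 genes per list and direction with the largest changes among those called, the ligand genes, Gnrh1 and Leprot, up to 3 markers per list by level, and the 3 genes most like a member. Col1a1, Slc6a13, Lum, Col1a2, Col3a1, Gh, Prl, Cga, Lhb and Tshb were named after their values were seen.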

Additional observations from a re-analysis of the deposited data

Results flagged for a closer look

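In 32 groups of 5 libraries that were checked for a library far from the rest, 3 stood out. For independent groups of like libraries, chance alone sets off about 1 group in 20. These groups shared libraries, and those of the negative pools held both ages, so that rate is only a rough guide. Mc4r, a melanocortin receptor, was highest among the 5 young second-set supernatants in young prior pool 2, at 7.55 CPM against 3.91 CPM in the nearest library. The first-set library of the same RNA held 4.75 CPM, which was also the higher of the 2 young prior pools there. Prlr, the prolactin receptor, was highest among the 5 negative IP libraries in young negative IP 1, at 66.2 CPM against 43.6 CPM. Igf1r, the IGF1 receptor, was highest among the 5 negative supernatants in adult negative pool 2, at 14.7 CPM against 10.4 CPM, and the IP of that pool held the highest Igf1r of the IP libraries, 37.4 CPM.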

How the results depend on the processing

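Without the filter on low counts no receptor call changed. The pool as a block (replicate block) changed no call of a receptor, and of the signs only that of Mc3r in the adult IP (−0.0059). With the block and length offsets, 3325 genes and 0 receptors were called for IP over supernatant, 2508 and 1 in the young, and 794 and 0 in the adult, with Lepr at −0.21 in the young and Mc4r at 0.075 in the adult. DESeq2 called 3091 genes for IP over supernatant in the adult, 153 for its age difference, 2276 genes and 2 receptors for adult over young supernatant, 3056 genes and 2 receptors for prior over new pools (Mc3r −0.0070), and 223 genes for the GFP-positive IP. For adult over young supernatant, 655 genes were called without the origin term, 481 in the new pools (Ghr −0.086), 11 in the prior pools, and Lepr was −0.15 with first-set libraries. For prior over new pools, first-set libraries gave 5993 genes and 2 receptors, with Insr −1.02, Igf1r −0.42, Ghr −0.083 and Prlr −0.14, and length offsets gave 871 genes, with Insr −0.051 and Ghr −0.073. Except for the effects of length removal and of fewer libraries, the cause was not tested.

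Leaving out each library gave 3571 to 5725 genes and 2 to 4 receptors for IP over supernatant, 2842 to 4856 genes and 2 to 3 receptors in the young, 285 to 2398 and 0 to 1 in the adult, and 0 to 67 for the age difference. It gave 723 to 1706 genes and 0 to 1 receptor for adult over young supernatant, 290 to 2493 and 0 to 3 for prior over new pools, 3651 to 4856 and 3 for the sequencing sets, and 0 to 1 gene for the GFP-positive IP. The fewest came without adult negative supernatant 1 in the adult IP (285) and the age comparison (723), and without young prior pool 2 for the prior pools (290). Signs of uncalled receptors turned as follows: Lepr from −0.26 to 0.17 for IP over supernatant, −0.24 to 0.62 in the young and −0.57 to 0.028 in the adult; Mc3r −0.61 to 0.58, Mc4r −0.55 to 0.039 and Npy1r −0.010 to 0.72 in the adult. For the age difference in the IP these were Igf1r −0.24 to 0.31, Mc4r −0.26 to 3.76 and Npy1r −0.42 to 0.31. For adult over young supernatant it was Ghr, −0.17 to 0.19. For prior over new pools they were Insr −0.075 to 0.16, Igf1r −0.022 to 0.22, Ghr −0.30 to 0.18 and Mc3r −0.26 to 0.19. For the sequencing sets they were Ghr −0.041 to 0.25, Mc3r −0.22 to 0.025 and Npy1r −0.055 to 0.11, and for the GFP-positive IP Ghr −0.26 to 0.33 and Npy1r −0.64 to 0.054. Counts of 0 to 28 limit Mc3r in the young IP, and 20 to 58 limit Lepr in the prior pools.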
